A study of Homo sapiens with 21 samples.

Results

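The genes described here are 10 members of the protein C, thrombin receptor and tissue factor systems, followed in OCI-AML5, a human acute myeloid leukemia cell line, during exposure to UM171. They were chosen by name from these systems, with earlier results of these data known, and make up 10 of the 58174 gene identifiers in the deposited tables. PROCR encodes the endothelial protein C receptor (EPCR), THBD thrombomodulin, and F2R, F2RL1 and F2RL2 the protease-activated receptors PAR1, PAR2 and PAR3. F3 encodes tissue factor, TFPI its inhibitor, PLAU urokinase, PLAUR the urokinase receptor, and F13A1 the A subunit of factor XIII. UM171 is a small molecule that expands human hematopoietic stem cells in culture.

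RNA with poly(A) tails was sequenced from 21 libraries, 3 in each of 7 groups. Control cells received DMSO, the vehicle (labelled 72 h), or UM171 at a labelled 500 nM for 6, 24, 48 or 72 h. Cells carrying guides against PROCR (sgEPCR) received DMSO or UM171 at the same labelled dose for 24 h. The study's legends give a lower dose of UM171 for both experiments. The labels of the control libraries name no guide, while the study's legends describe control cells with a guide against AAVS1, and the labels tie no sgEPCR library to any of the EPCR guides. The labels call the sgEPCR cells a clone, EPCR null in one field and EPCR knockdown in another, and the study describes 3 independent clones, but no label says which library is which clone. For the control libraries no source used here says that they came from separate cultures, so their p-values measure a spread that may be technical. Libraries held 24.3 to 51.5 M counts with a median of 33.9 M. In 19 libraries the mitochondrial genes took 7.73 to 13.5% of counts, whereas they took 35.9% in replicate 1 of the sgEPCR cells in DMSO and 32.2% in replicate 2 of those in UM171. For the members, many calls and folds that rest on those libraries are also given without them. Values of the list genes and the marker sums are given only with them. The time points of the control series share the same DMSO libraries, labelled 72 h. At 6, 24 and 48 h, UM171 and time in culture therefore cannot be told apart in the changes against DMSO. The steps between time points carry the same limit.

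As background, EPCR holds protein C on the cell surface while thrombin bound to thrombomodulin activates it. Activated protein C slows coagulation by cleaving factors V and VIII, and while still bound to EPCR it cleaves PAR1 at another site than thrombin does, which gives anti-inflammatory signals. Tissue factor starts coagulation with factor VII and is held back by TFPI. Urokinase bound to its receptor turns plasminogen into plasmin, which dissolves the fibrin that factor XIII cross-links. EPCR also marks hematopoietic stem cells, and tissue factor and the urokinase receptor are made by activated monocytes.

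PROCR lies at chr20:35172072-35216240 on the plus strand of GRCh38 (GENCODE 44) and has 4 exons. F3 lies at chr1:94529173-94541759 on the minus strand and has 6. Their upstream sequences are shown because the genes responded differently: PROCR rose by 6 h in control cells and did not pass the limits in sgEPCR cells, whereas F3 rose from 24 h on and did so in both. Each is the 250 bases before the RefSeq start (GRCh38.p14), chr20:35171822-35172071 on the plus strand and chr1:94541760-94542009 on the minus strand. Neither window overlaps an annotated exon of its own gene, and exons of other genes were not checked. Capitals mark letters that match TGANTCA, a motif of AP-1 factors, searched on both strands.
PROCR: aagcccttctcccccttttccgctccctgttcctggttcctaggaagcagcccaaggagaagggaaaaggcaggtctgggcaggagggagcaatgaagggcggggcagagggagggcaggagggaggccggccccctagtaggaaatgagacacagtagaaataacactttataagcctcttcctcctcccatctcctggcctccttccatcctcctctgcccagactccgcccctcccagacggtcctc
F3: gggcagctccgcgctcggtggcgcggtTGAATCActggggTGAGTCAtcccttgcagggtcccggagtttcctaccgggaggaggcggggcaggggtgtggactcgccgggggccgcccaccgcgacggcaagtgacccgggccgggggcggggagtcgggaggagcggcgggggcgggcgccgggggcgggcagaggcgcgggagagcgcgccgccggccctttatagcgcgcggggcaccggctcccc
The F3 window held 2 matches, TGAATCA at -223 to -217 and TGAGTCA at -210 to -204 counted from the start, and the PROCR window held 0. Over 35116 RefSeq promoter windows of that length, 6.57% held the motif. The windows of PLAUR and F2RL2, which are not shown, held 1 match each, and that of PLAUR lies wholly in annotated exons of PLAUR. The windows of TFPI, PLAU and F13A1, which also rose in sgEPCR cells, held 0, as did that of F2RL1. No window was available for THBD and F2R. A match is a description of the sequence and was not tested for binding.

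Of the 10 members, 8 had enough counts to be tested in both model fits. F2RL1 and F2RL2 did not pass the filter on low counts: F2RL1 had at most 1 count and F2RL2 at most 2 counts in any library, under the 3 counts taken as a floor. PAR2 and PAR3 transcripts were therefore not detectable at this depth, and this covers counting error only. No member shared reads with another gene (the RSEM posterior SD of the count was 0 in every library), whereas 31.5 to 37.4% of counted genes in a library did. Levels are given in TPM, the share of a library's transcripts after correction for transcript length. Changes are log2 fold changes ± the standard error from edgeR, and a gene rose, fell or changed when its adjusted p was under 0.0001 and the change over 2-fold.

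**Figure D1:**
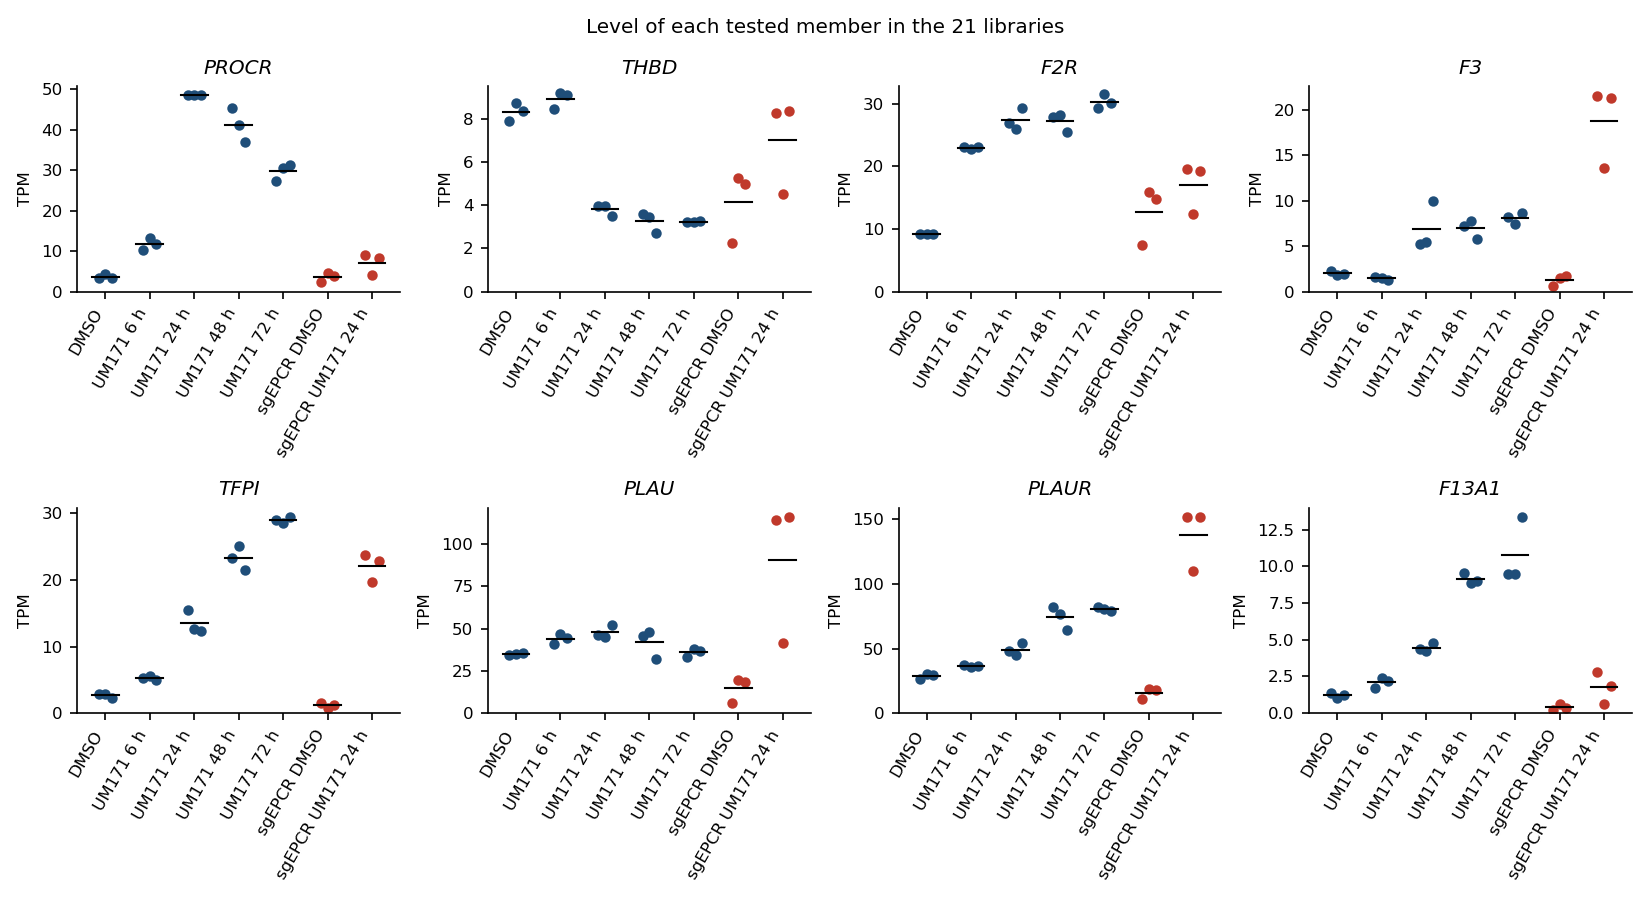
Each panel plots the TPM of a member (linear axis from 0) in the 21 libraries by group, with a point per library, a bar at the mean of 3 libraries, control cells in blue and sgEPCR cells in red. PROCR was highest at 24 h in control cells (48.48 to 48.50 TPM) and was at 4.23 to 8.94 TPM in sgEPCR cells in UM171, where F3, PLAU and PLAUR had their highest values.

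PROCR, the receptor itself, gave the strongest response of the members at 6, 24 and 48 h. Its level was 3.37, 4.30 and 3.38 TPM in the 3 DMSO libraries and 10.29, 13.26 and 11.88 TPM at 6 h. It reached 48.50, 48.48 and 48.50 TPM at 24 h, 13.2-fold the DMSO mean, then 45.30, 41.09 and 36.88 TPM at 48 h and 27.33, 30.63 and 31.25 TPM at 72 h. All 4 treated groups lay above the DMSO libraries with no overlap. The change against DMSO was 1.54 ± 0.10 at 6 h (adjusted p = 1.09e-09), 3.71 ± 0.09 at 24 h, 3.53 ± 0.09 at 48 h and 2.96 ± 0.09 at 72 h, on the log2 scale. The highest values were thus those at 24 h, and the step from 48 to 72 h was -0.57 ± 0.07 (adjusted p = 1.70e-06), which is past the p limit but under 2-fold.

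THBD, whose product presents thrombin to EPCR-bound protein C, went the other way. It stood at 7.90, 8.72 and 8.36 TPM in DMSO and at 8.43, 9.17 and 9.08 TPM after 6 h, where the groups overlapped and the change was -0.07 ± 0.06 (adjusted p = 0.292). It then fell to 3.98, 3.96 and 3.48 TPM at 24 h, 3.61, 3.45 and 2.73 TPM at 48 h and 3.21, 3.23 and 3.26 TPM at 72 h, all below every DMSO library. The fall against DMSO was -1.15 ± 0.06 at 24 h (adjusted p = 2.88e-11) and -1.43 ± 0.06 at 72 h on the log2 scale. THBD was the only member that fell over 2-fold in the control time course. The ratio of PROCR to THBD within a library, in TPM and so free of scaling between libraries, was 0.441 ± 0.046 (SD, n = 3) in DMSO and 1.33 ± 0.11 at 6 h. It was 12.8 ± 0.99 and 12.7 ± 0.80 at 24 and 48 h, and 9.19 ± 0.59 at the last time. Receptor and thrombomodulin transcripts thus changed order: THBD was the higher of the pair in every DMSO library, and PROCR in every library of control cells in UM171.

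Both genes are best known from endothelium, so the endothelial markers were read beside them. CDH5, KDR, TEK, VWF, EMCN and CLDN5, 6 of 8 markers, were under 0.5 TPM in all 21 libraries. The summed level of the 8 was 43.1 to 47.1 TPM in DMSO, 13.1 to 14.7 TPM at 24 h and 41.2 to 42.4 TPM at 72 h, nearly all of it PECAM1 and ESAM. In sgEPCR cells the sum was 5.55 to 8.29 TPM in DMSO and 15.8 to 32.7 TPM in UM171. It was thus lower at 24 h in control cells, lower in sgEPCR cells in DMSO and higher there in UM171, as THBD was, while at 72 h in control cells it was near its DMSO level and THBD was not. Its part in the THBD values was not tested.

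Among the thrombin receptors, F2R (PAR1) was the expressed one. It was at 9.25, 9.20 and 9.28 TPM in DMSO and rose by 6 h to 23.15, 22.78 and 23.12 TPM, 2.49-fold, with a change of 1.21 ± 0.05 (adjusted p = 1.99e-11). It then stayed between 25.50 and 31.64 TPM in the 9 libraries from 24 to 72 h. Most of the F2R difference from the DMSO libraries, labelled 72 h, was thus present at 6 h. The step from 6 to 24 h added 0.37 ± 0.05 and the next steps 0.07 ± 0.05 and 0.05 ± 0.05. In DMSO the F2R level was 2.54 ± 0.35 times that of PROCR, and at 24 h 0.564 ± 0.036 times (SD, n = 3). The 3 genes F2RL2, F2R and F2RL1 sit in a row on chromosome 5 with gaps of 92.7 and 83.2 kb, and the rise was seen in the middle gene alone, the outer genes being at or under 2 counts.

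Tissue factor and its inhibitor rose on different schedules. F3 stood at 2.32, 1.8 and 1.93 TPM in DMSO and at 1.58, 1.54 and 1.26 TPM at 6 h, below every DMSO library, with a change of -0.65 ± 0.21 (adjusted p = 0.0123) that did not pass the limits. At 24 h it was at 5.25, 5.47 and 9.96 TPM, and at 72 h at 8.24, 7.47 and 8.61 TPM. The rise against DMSO was 1.84 ± 0.17 at 24 h (adjusted p = 3.00e-08), 2.00 ± 0.17 at 48 h and 2.08 ± 0.16 at 72 h. The single step from 6 to 24 h was 2.48 ± 0.18, the largest of any member over that step. Replicate 3 at 24 h stood apart from the other two F3 values of its group, and without it the rise at 24 h was 1.61.

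TFPI was higher at each later time. It was at 2.83, 2.80 and 2.34 TPM in DMSO, 5.32, 5.63 and 5.02 TPM at 6 h, 15.54, 12.71 and 12.34 TPM at 24 h, 23.25, 25.12 and 21.58 TPM at 48 h and 29.08, 28.60 and 29.47 TPM at 72 h. These 5 groups did not overlap one another. The change against DMSO was 0.91 ± 0.08 at 6 h (adjusted p = 5.16e-08), just under 2-fold, then 2.47 ± 0.07, 3.30 ± 0.07 and 3.50 ± 0.07. The rise of 10.9-fold in mean TPM at 72 h was the largest of the members at that time. The ratio of F3 to TFPI in TPM was 0.762 ± 0.104 in DMSO and 0.279 ± 0.016 at 72 h (SD, n = 3), with no overlap between the groups. At 24 h the ratio spread from 0.338 to 0.807 and overlapped DMSO.

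In the urokinase system the receptor and the protease parted. PLAUR was at 26.23, 30.47 and 29.32 TPM in DMSO, 37.44, 36.06 and 36.45 TPM at 6 h and 47.74, 45.18 and 53.92 TPM at 24 h, where the change was 0.83 ± 0.07 and did not reach 2-fold. It rose past 2-fold at 48 h (81.90, 76.72 and 64.63 TPM, 1.49 ± 0.07, adjusted p = 4.13e-12) and held at 72 h (81.84, 80.75 and 79.03 TPM, 1.53 ± 0.07). PLAU, the most abundant member in DMSO at 34.27, 34.79 and 35.35 TPM, ranged between 32.13 and 52.26 TPM in UM171. Its changes against DMSO, in order of time, were 0.14, 0.33, 0.27 and -0.11, and it passed the limits at none of these times. The ratio of PLAU to PLAUR went from 1.22 ± 0.08 in DMSO to 0.446 ± 0.037 at 72 h (SD, n = 3).

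F13A1, whose product cross-links fibrin and is made by megakaryocytes and monocytes, started as the lowest tested member at 1.39, 1.01 and 1.24 TPM. It was at 1.69, 2.37 and 2.20 TPM at 6 h, 4.37, 4.23 and 4.75 TPM at 24 h, 9.57, 8.83 and 9.0 TPM at 48 h and 9.46, 9.45 and 13.35 TPM at 72 h. The rise was 1.91 ± 0.13 at 24 h (adjusted p = 7.31e-10), 2.92 ± 0.12 at 48 h and 3.18 ± 0.12 at 72 h. Of the 6 markers read for megakaryocytes and platelets, 5 were under 0.5 TPM in all libraries, and their summed level, almost all ITGA2B, went from 1.07 to 1.86 TPM in DMSO to 16.5 to 20.5 TPM at 72 h. That sum was 2.38 to 3.09 TPM at 6 h and 2.30 to 3.14 TPM at 24 h, above every DMSO library at both times. At 24 h, when F13A1 had risen, 1 of the 2 tested markers had risen too. The part of these markers in the F13A1 values was not tested. The summed monocyte and macrophage markers were 117 to 136 TPM in DMSO, 95.35 to 108.91 TPM at 24 h and 159 to 178 TPM at 72 h. Of these 6 markers 3 were under 0.5 TPM throughout. Of the 3 tested, 0 rose and 1 fell at 72 h, with a median change of 0.21.

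**Figure D2:**
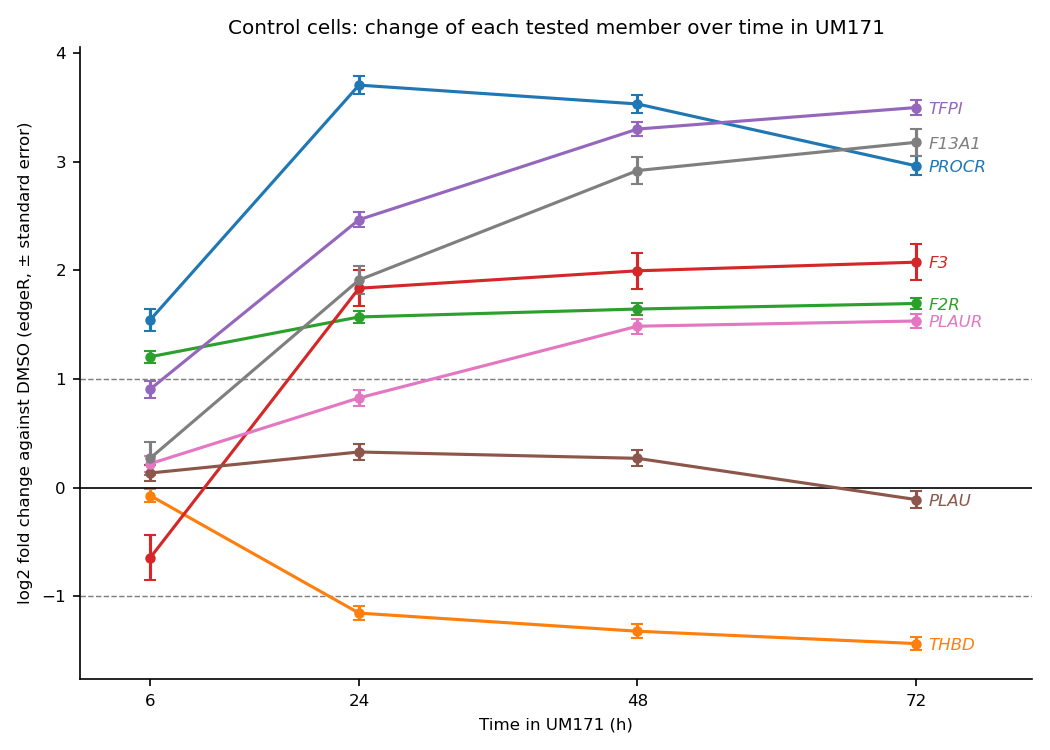
Lines give the log2 fold change against DMSO (vertical axis, edgeR) of the 8 tested members at 6, 24, 48 and 72 h in UM171 (horizontal axis), bars are standard errors from a fit of 15 libraries, and dashed lines mark 2-fold. PROCR was highest at 24 h (3.71), TFPI and F13A1 were highest at 72 h (3.50 and 3.18), and THBD was the only line below -1.

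Counted together, 2 of the 8 tested members rose and 0 fell at 6 h, where 7.03% of all 16575 tested genes changed. There 6.78% of all genes rose and 0.247% fell. At 24 h 5 members rose and 1 fell, against 13.7% of all genes changed, 9.03% rising and 4.70% falling. At 48 h 6 rose and 1 fell, against 16.4% changed, 11.7% rising and 4.67% falling. The same counts at 72 h stood against 20.8% of all genes changed. The median change of the 8 was 0.25, 1.70, 1.82 and 1.89 at 6, 24, 48 and 72 h, while the median over all tested genes stayed between -0.01 and 0.02. The member and all-gene figures describe chosen genes and are not a test of the group. By steps, 4 members rose and THBD fell from 6 to 24 h (10.0% of all genes changed, 3.61% rising and 6.43% falling), F13A1 alone passed from 24 to 48 h (1.01 ± 0.10, 2.85% of all genes), and 0 passed from 48 to 72 h (3.35% of all genes). In that last step 4 had an adjusted p under 0.05 by edgeR, as did 57.3% of all genes, with PROCR and PLAU lower at 72 h and TFPI and F13A1 higher. With that looser limit and no minimum fold, 5 members differed from DMSO at 6 h (62.1% of all genes), 8 between 6 and 24 h (67.1%) and 5 between 24 and 48 h (45.7%). The F13A1 step lies at the 2-fold limit. It was under that limit with DESeq2 (0.999), and in the fits without UM171 24 h replicate 2, without UM171 48 h replicate 1 or 2, and without any of the 6 h replicates.

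The sgEPCR cells were compared first in DMSO. PROCR, the targeted gene, was at 2.30, 4.53 and 3.93 TPM, overlapping the control DMSO libraries, with a difference of 0.42 ± 0.12 (adjusted p = 0.0224). An edit of the coding sequence need not alter the amount of transcript, so this level does not check the edit. No member passed the limits between sgEPCR and control cells in DMSO (2.84% of all 15901 tested genes did), although 7 of 8 had an adjusted p under 0.05 by edgeR, as did 33.7% of all genes. F2R was higher in sgEPCR cells by 0.94 ± 0.10, and F13A1, TFPI and PLAU were lower by 1.19, 0.94 and 0.89 on the log2 scale. The F2R groups overlapped in TPM, with a fold of the means of 1.38, and 1.66 without the library of high mitochondrial share. F3 differed by -0.02 ± 0.21 by edgeR. In TPM, however, F3 lay below every control DMSO library, at 0.638 times the control mean and 0.791 times without the library of high mitochondrial share. Without the libraries of high mitochondrial share 2 members passed, TFPI (-1.13) and F13A1 (-1.11). The sgEPCR DMSO libraries are labelled 24 h and the control ones 72 h, so time in DMSO and genotype cannot be told apart here.

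UM171 for 24 h raised 5 of the 8 tested members in sgEPCR cells and lowered 0, against 10.3% of all tested genes that changed, 6.99% rising and 3.33% falling. TFPI went from 1.47, 0.84 and 1.25 TPM to 23.74, 19.73 and 22.83 TPM, a rise of 4.47 ± 0.26 (adjusted p = 2.13e-07). F3 went from 0.67, 1.5 and 1.69 TPM to 21.57, 13.60 and 21.29 TPM, a rise of 3.53 ± 0.21 (adjusted p = 3.28e-07). PLAUR went from 11.16, 18.52 and 18.05 TPM to 151.78, 110.21 and 152.13 TPM, a rise of 2.77 ± 0.09 (adjusted p = 8.36e-09). In these 3 genes the groups were far apart, and the lowest treated value was always replicate 2, the library with 32.2% mitochondrial counts. Without the libraries of high mitochondrial share the fold of the mean TPM was 22.3 for TFPI (18.6 with them), 13.4 for F3 (14.6) and 8.31 for PLAUR (8.68), and the same 5 members passed the limits.

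PLAU rose as well in sgEPCR cells, from 5.86, 19.67 and 18.43 TPM to 114.43, 41.44 and 116.04 TPM, by 2.37 ± 0.17 (adjusted p = 9.49e-07). F13A1 rose by 2.10 ± 0.21 (adjusted p = 1.02e-05), but its TPM values overlapped, at 0.23, 0.61 and 0.37 TPM in DMSO and 2.77, 0.60 and 1.87 TPM in UM171. The low treated value and the low DMSO value of both genes were again the libraries with high mitochondrial shares. Without those libraries the fold of the means was 6.05 for PLAU and 4.73 for F13A1, against 6.19 and 4.33 with them. The F13A1 call was also lost without sgEPCR DMSO replicate 2 (2.12, adjusted p = 1.27e-04). On the log2(TPM + 1) scale with limma, PLAU (2.57, adjusted p = 0.00216) and F13A1 (0.89, adjusted p = 0.0307) did not pass.

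The remaining members, PROCR, F2R and THBD, did not pass the limits in sgEPCR cells. PROCR went from 3.59 ± 1.15 to 7.19 ± 2.58 TPM (SD, n = 3), with single values of 8.94, 4.23 and 8.41 TPM in UM171, a change of 0.65 ± 0.12 (adjusted p = 0.00102) under 2-fold. F2R was at 7.51, 15.97 and 14.76 TPM in DMSO and 19.59, 12.33 and 19.19 TPM in UM171, a change of 0.20 ± 0.10 (adjusted p = 0.111). THBD was at 2.23, 5.27 and 4.98 TPM in DMSO and 8.25, 4.52 and 8.34 TPM in UM171, and its change of 0.53 ± 0.08 (adjusted p = 2.44e-04) had the opposite sign to that in control cells. The ratio of PROCR to THBD stayed near 1 in sgEPCR cells, at 0.893 ± 0.125 in DMSO and 1.01 ± 0.07 in UM171 (SD, n = 3), where it was 12.8 in control cells at 24 h. The folds of mean TPM were 2.01 for PROCR, 1.34 for F2R and 1.69 for THBD, and 2.05, 1.26 and 1.62 without the libraries of high mitochondrial share.

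The difference between the responses was tested directly in a fit of 12 libraries, as the sgEPCR response minus the control response at 24 h. The control response is set against DMSO libraries labelled 72 h and the sgEPCR response against DMSO libraries labelled 24 h, so time in DMSO and genotype cannot be told apart in this difference either. It passed the limits for 5 of 8 members, where 7.77% of all genes did, the sgEPCR response being the higher one in 3.60% and the lower one in 4.17%. The response was smaller in sgEPCR cells for PROCR, the targeted gene (difference -3.06 ± 0.17, adjusted p = 5.77e-07), and F2R (-1.38 ± 0.14, adjusted p = 1.85e-05). It was higher in sgEPCR cells for THBD (1.69 ± 0.11, adjusted p = 1.64e-06), PLAU (2.03 ± 0.23, adjusted p = 4.66e-05) and PLAUR (1.93 ± 0.12, adjusted p = 1.15e-06). For TFPI and F3 the differences of 2.00 ± 0.33 and 1.66 ± 0.29 fell short of the limits (adjusted p = 5.82e-04 and 8.09e-04). Both passed with DESeq2 (2.02 and 1.69) and with all 21 libraries in a fit, which gave 7 members. F13A1 differed by 0.17 ± 0.27 (adjusted p = 0.635). On the log2(TPM + 1) scale with limma 0 of the 8 passed, the adjusted p being 0.00225 for PROCR, 0.0256 for THBD, 0.111 for F2R, 0.0514 for PLAU and 0.00110 for PLAUR, with the same signs. The PLAU call was kept without sgEPCR DMSO replicate 1 or sgEPCR UM171 replicate 2, the libraries of high mitochondrial share, and lost without any of the other 10 libraries, with adjusted p up to 3.11e-04. The F2R call was lost without DMSO replicate 2, DMSO replicate 3 or UM171 24 h replicate 1. TFPI passed without sgEPCR UM171 replicate 2 (1.70, adjusted p = 6.19e-05) and without both libraries of high mitochondrial share (1.88, adjusted p = 4.74e-08), where the other 5 calls stood.

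**Figure D3:**
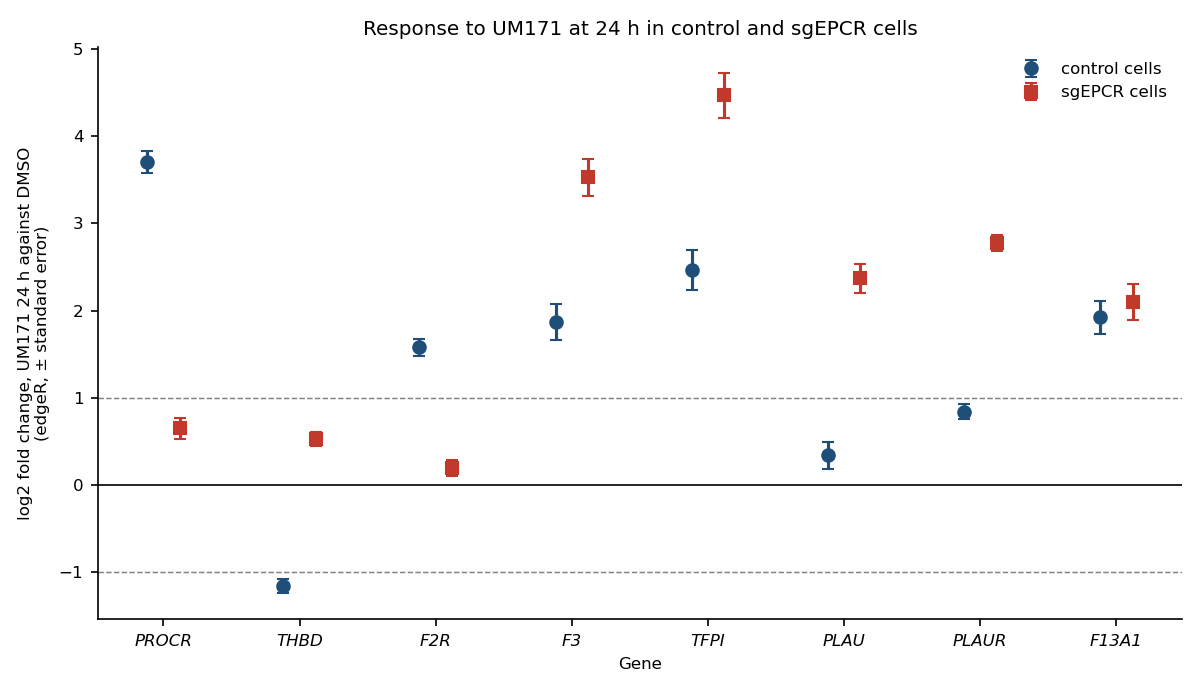
For each tested member (horizontal axis), the log2 fold change of UM171 at 24 h against DMSO is drawn for control cells (blue circles) and sgEPCR cells (red squares), with standard errors from a fit of 12 libraries and dashed lines at 2-fold. PROCR and F2R were higher in control cells, with PROCR at 3.71 against 0.65, and THBD, PLAU and PLAUR were higher in sgEPCR cells, with PLAUR at 0.84 against 2.77.

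Compared at 24 h in UM171, sgEPCR cells differed from control cells in 4 members, where 4.46% of all genes differed, 2.67% being higher and 1.79% lower in sgEPCR cells. At an adjusted p under 0.05 with no minimum fold all 8 members differed, and 43.0% of all genes. PROCR, the targeted gene, was lower by 2.63 on the log2 scale (adjusted p = 1.92e-07). It was at 0.148 times the control level in mean TPM and 0.179 times without the library of high mitochondrial share. F3 was higher by 1.65 ± 0.19 (adjusted p = 6.96e-05), PLAUR by 1.52 ± 0.09 (adjusted p = 7.06e-07) and THBD by 1.08 ± 0.08 (adjusted p = 3.66e-06). PLAU was also above control on average (1.14 ± 0.16, adjusted p = 2.41e-04), but replicate 2, with 41.44 TPM, was below all 3 control values. PLAU passed without sgEPCR DMSO replicate 1 (1.13), sgEPCR UM171 replicate 2 (1.28) or both (1.29), and PLAU and TFPI passed with DESeq2 (1.16 and 1.08). The F3 call was kept without UM171 24 h replicate 3, sgEPCR DMSO replicate 1 or sgEPCR UM171 replicate 2 and lost without any of the other 9 libraries, with adjusted p up to 6.57e-04. In limma on log2(TPM + 1) 0 of these passed. The adjusted p there was 2.26e-04 for PROCR, 0.00175 for PLAUR, 0.0118 for F3 and 0.135 for THBD, whose difference was 0.70.

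The partners of these genes came from 6 lists of pathway genes, counted by the same limits. Their counts stand against 20.8% of all tested genes changed at 72 h and 10.3% in sgEPCR cells, and nothing is read from them about a list as such. Their sgEPCR values include the libraries of high mitochondrial share. Of the 8 protein C partners and sheddases 5 were tested, and at 72 h 1 rose, PROS1, which encodes protein S, the cofactor of activated protein C (2.59 ± 0.06, adjusted p = 6.29e-16). PROS1 went from 13.2 to 14.8 TPM in DMSO to 80.8 to 92.7 TPM at 72 h. GAS6, a related vitamin K-dependent ligand, fell at 48 h (-1.29 ± 0.10, adjusted p = 1.99e-09). ADAM17, a protease that can shed EPCR, passed only between sgEPCR and control cells in UM171, where it was higher by 1.01 ± 0.10. That value lies at the 2-fold limit, and the mean TPM was 28.8 in sgEPCR cells against 16.9 in control cells at 24 h. PROC itself, encoding protein C, had at most 1 count in any library. The median change of the list at 72 h was 0.36, against 0.02 over all genes.

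Of 17 coagulation factors 5 were tested, and 3 rose at 72 h. The transcripts of F2 (prothrombin), F7, F9, F10 and the fibrinogen chains FGA, FGB and FGG had at most 2 counts in any library. F5, a cofactor that activated protein C cleaves, rose from 0.40 to 0.78 TPM in DMSO to 16.1 to 20.7 TPM at 48 h (5.59 ± 0.10, adjusted p = 3.77e-17) and to 30.1 to 30.9 TPM in sgEPCR cells in UM171. F8, the other such cofactor, was at 6.39 to 6.67 TPM in DMSO and rose to 16.4 to 16.7 TPM at 72 h. FGL2, a fibrinogen-like protein with prothrombinase activity, had a difference between the responses of 4.19 ± 0.20 (adjusted p = 2.57e-07), and at 24 h it was at 3.86 to 5.19 TPM in control cells and 7.09 to 11.04 TPM in sgEPCR cells. Its level in sgEPCR DMSO libraries was 0.29 to 0.89 TPM, against 5.16 to 6.10 TPM in control DMSO. The median of the list at 72 h was 2.00.

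Of 13 listed inhibitors of coagulation and fibrinolysis 6 were tested, and 4 of them rose at 72 h. The median of 3.90 at that time covers only the tested genes. SERPINB2, an inhibitor of urokinase, rose from 6.07 to 6.86 TPM in DMSO to 97.6 to 127.6 TPM at 48 h (4.27 ± 0.06, adjusted p = 1.75e-17). A2M, a broad protease inhibitor, rose in sgEPCR cells by 5.10 ± 0.26 (adjusted p = 9.18e-08), to 74.8 to 108.0 TPM. SERPINA1, the inhibitor of neutrophil elastase, went from 4.47 to 4.97 TPM in DMSO to 61.4 to 70.1 TPM at 72 h (3.83 ± 0.11, adjusted p = 7.12e-15). SERPIND1, heparin cofactor II, had 1 to 3 counts in the DMSO libraries and 114 to 120 at 72 h. It thus passed the filter on low counts only through groups in UM171.

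In the list of plasminogen activation and its receptors 6 of 13 tested genes rose at 72 h (16 listed, median 1.00), and 7 of 13 in sgEPCR cells (median 1.83). The integrin subunits ITGB3 and ITGAM rose at 72 h by 4.26 ± 0.30 and 3.02 ± 0.05. LRP1, which clears urokinase and its inhibitor complexes, and S100A10, a plasminogen receptor subunit, had differences between the responses of 3.47 ± 0.34 and 3.36 ± 0.11. Both were lower in sgEPCR than in control cells in DMSO, S100A10 at 18.7 to 56.7 TPM against 188 to 217 TPM. In this list 6 further genes passed in some comparison.

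Of 19 PAR signalling genes 18 were tested, and at 72 h 2 rose and 2 fell with a median of 0.05, a share close to the 20.8% of all genes. F2RL3, encoding PAR4, the other platelet thrombin receptor, fell at 48 h (-2.43 ± 0.28, adjusted p = 6.26e-07), from 0.51 to 0.67 TPM in DMSO to 0.03 to 0.15 TPM. Of the 4 PAR genes, F2R was thus the one that rose and the only one above 1 TPM. S1PR3, a sphingosine 1-phosphate receptor, fell at 24 h from 22.5 to 23.5 TPM to 4.40 to 4.70 TPM (-2.39 ± 0.05, adjusted p = 3.20e-16). DAB2, an endocytic adaptor, and ARHGEF12 rose at 72 h by 1.53 ± 0.09 and 1.99 ± 0.21. In the vitamin K cycle and transport list 8 of 8 genes were tested and 1 rose at 72 h, GGCX, the carboxylase of vitamin K-dependent factors (1.17 ± 0.05). PDIA4, a folding enzyme, rose at 48 h (1.28 ± 0.05).

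**Figure D4:**
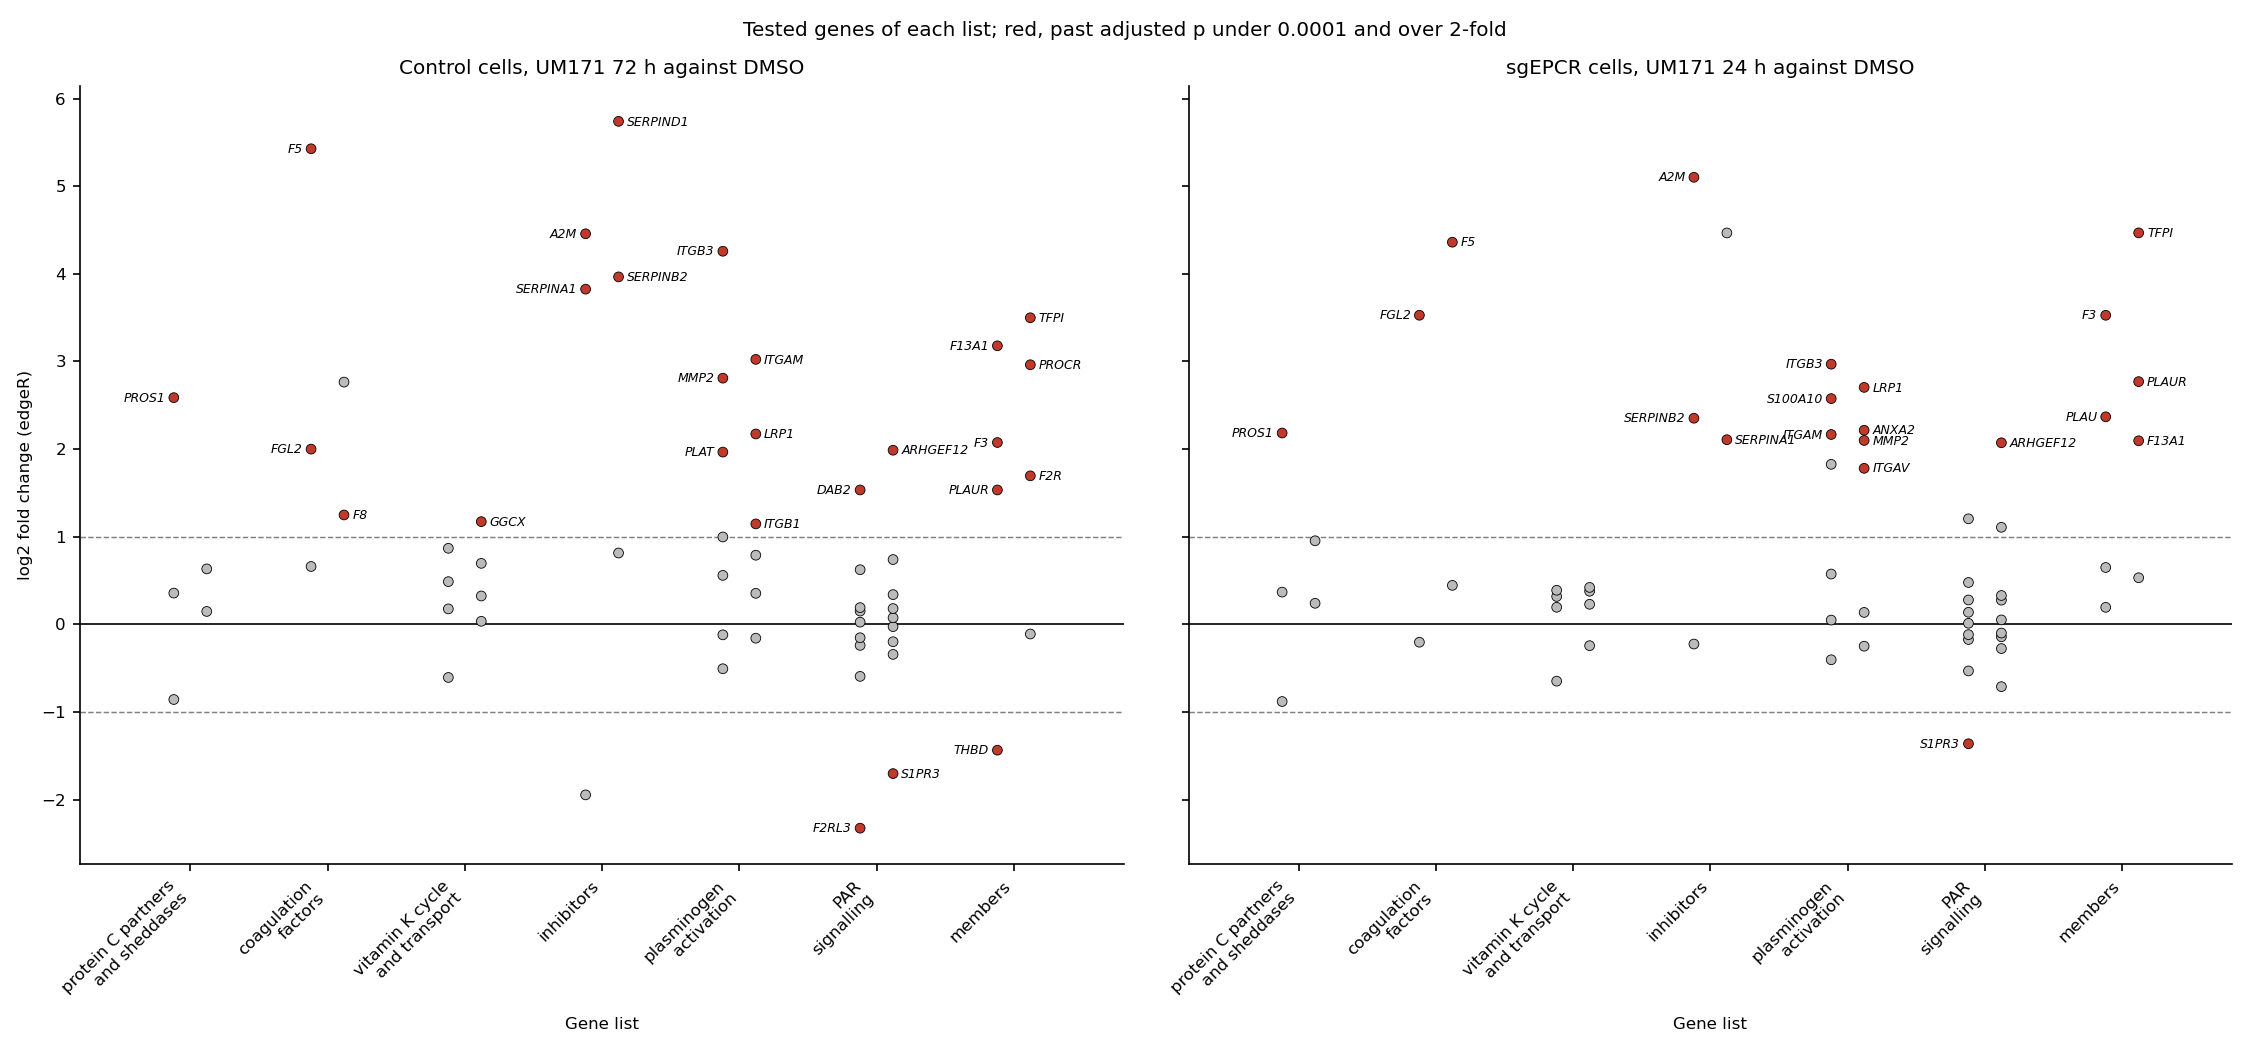
Points are the tested genes of the 6 lists and the members (horizontal axis), placed by log2 fold change (vertical axis, edgeR), for control cells at 72 h (left) and sgEPCR cells at 24 h (right) in UM171 against DMSO, with genes past the limits in red and named. The inhibitors have a median of 3.90 on the left and 2.35 on the right, and SERPIND1 on the left rests on 1 to 3 counts per DMSO library.

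The members' profiles over the 21 libraries were set beside those of 15066 expressed genes by Pearson's r of log2(TPM + 1), as a description of libraries that share treatments and depth. The 5 genes most like PROCR were ASB9 (r = 0.977), AHR (0.968), SLC18B1, AIF1 and TBC1D8B, and AHR went from 14.8 TPM in DMSO to 73.7 TPM at 24 h in control cells and from 12.6 to 28.4 TPM in sgEPCR cells. For F2R they were MPZL1, PTPN13 and MORC4, and for THBD DGKH, FAM13B and CDK13. F3 was most like CCL3 (r = 0.981) and CCL3L3, which share sequence and can split reads, and KLF10. TFPI was most like IL2RG (r = 0.988), CYTIP and LY96, PLAUR like EMP1 (r = 0.983), SGK1 and RIPK2, PLAU like CPEB1, INPP5F and SEC22C, and F13A1 like LMTK3, PSKH2 and ADAMTS14. Among the members themselves the highest r were those of F3 with PLAUR (0.931), TFPI with PLAUR (0.915) and PROCR with F2R (0.904).

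Of the 6 markers read for a myeloid leukemia line, PTPRC, CD33, SPI1 and LYZ were the abundant ones, the lowest value of any being 34.6 TPM. MPO, myeloperoxidase, had means of 0.74 to 7.25 TPM over the groups and ANPEP, encoding CD13, of 0.03 to 0.83 TPM, so those markers were low or near absent. The summed fibroblast markers were at most 2.33 TPM and the summed hepatocyte markers at most 0.87 TPM in any library. With RNA from whole cultures, fewer expressing cells and less RNA per cell cannot be told apart.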

How the data were processed

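Poly(A) RNA of 21 OCI-AML5 libraries was read as the authors deposited it. Per the labels, reads were processed with CASAVA 1.8.2, trimmed with Trimmomatic 0.35, aligned to GRCh38 with STAR 2.5.1b and quantified with RSEM 1.2.28, as named in the submitters' processing notes, while the study's methods name kallisto and sleuth. The deposited tables hold, for each gene, expected counts that are not normalized and TPM that the authors obtained from RSEM by dividing by effective length and scaling within a library, so that a library with many mitochondrial counts has lower TPM for other genes. The deposited transcript length and posterior SD of the count are other columns, used for checks. The strand setting of the counting is not given in the sources used here. PROCR, F2R, TFPI and PLAU overlap genes on the opposite strand, so reads of such a partner could enter their counts if strand was not used.

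Pseudoautosomal genes listed for both X and Y (45) were added up, leaving 58174 identifiers, 57392 with a symbol. Expected counts were rounded and tested with edgeR 4.0.16 in R 4.3.3 (filterByExpr, TMM, quasi-likelihood test, p adjusted by Benjamini-Hochberg across every gene tested). The 15 control libraries were fitted together for the time course (16575 genes), and the 12 DMSO and 24 h libraries for the sgEPCR comparisons (15901 genes), without a term for the replicate number. Limits were an adjusted p under 0.0001 and over 2-fold. Totals were 24.3 to 51.5 M counts, and the floor of 3 counts covers counting error only. On simulated data 200 of 200 genes changed 4-fold were recovered with 0 false calls in each of the 24 h contrast (16107 genes) and the difference between responses (15481 genes). Both simulations changed only well-counted genes and used a spread near that of the time-course fit (coefficient of variation 0.0564). The sgEPCR fit had 0.187, so the recovery for the difference between responses does not cover the spread of those libraries.

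The members and the pathway and marker lists were chosen with earlier results of these data known. Of the list of inhibitors 1 gene is not reported here and is left out of its counts and medians. Named in the text were all members, of each pathway list the genes past the limits in any comparison (at most the 4 with the largest change), and for each expressed member the 3 genes (5 for PROCR) of most similar profile among genes with a mean of at least 1 TPM in any group. PROC, GGCX and other list genes named for a count at or near 0, or where a count of a list was small, were named after their values were seen. As alternatives the text uses limma 3.58.1 on log2(TPM + 1) and log2(TPM + 0.1), DESeq2 1.42.0, other scalings and filters, all 21 libraries in a fit, a replicate block, leaving out each library or those with over 20% mitochondrial counts, and an adjusted p under 0.05. Positions are from GENCODE 44 and upstream sequences from RefSeq (GRCh38.p14), and figures used matplotlib 3.10.9.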

Additional observations from a re-analysis of the deposited data

Results flagged for a closer look

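The difference between the UM171 response at 24 h in sgEPCR cells and in control cells passed the limits for 5 members. It was -3.06 for PROCR, -1.38 for F2R, 1.69 for THBD, 2.03 for PLAU and 1.93 for PLAUR on the log2 scale, as sgEPCR minus control. The control DMSO libraries are labelled 72 h and the sgEPCR ones 24 h, so time in DMSO and genotype cannot be told apart in these differences. PROCR is the gene that the guides target, and the part of the edit itself in its transcript level was not tested.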

How the results depend on the processing

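In the 4 comparisons of UM171 with DMSO the count of members past the limits was the same without any single library. At 6 h it was 3 for 2 with upper quartile and total count scaling (TFPI gained) and 5 at an adjusted p under 0.05, at 24 h 5 for 6 with limma on log2(TPM + 1) (THBD lost at -0.96), and at 24 and 48 h 8 at an adjusted p under 0.05. That looser limit also gave 8 for 5 from 6 to 24 h, 5 for 1 from 24 to 48 h, 4 for 0 from 48 to 72 h, 7 for 0 between the genotypes in DMSO and 8 for 4 between them in UM171. From 24 to 48 h the count was 0 with DESeq2, both limma fits, total count scaling, no filter and all 21 libraries, and 0 to 1 without single libraries. For the sgEPCR response it was 3 for 5 with both limma fits and total count scaling. In DMSO the genotypes differed in 1 member with DESeq2, in 2 without the libraries over 20% mitochondrial counts, and in 0 to 1 without single libraries. In UM171 they differed in 0 with both limma fits, 1 with total count scaling, 6 with DESeq2, 7 with all 21 libraries and 3 to 5 without single libraries. The difference between responses held 0 with both limma fits, 2 with total count scaling, 7 with DESeq2, all 21 libraries or an adjusted p under 0.05, 6 without the libraries over 20% mitochondrial counts, and 3 to 6 without single libraries. The cause of these shifts was not tested.

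Signs turned only for changes under 2-fold with no call: THBD at 6 h (0.085 and 0.094 with limma, 0.025 with upper quartile and 0.11 with total count scaling), PLAU at 72 h (0.040 and 0.041 with limma), F2R from 24 to 48 h (-0.0062 and -0.0064 with limma), PLAU from 24 to 48 h (-0.11 to 0.033 without single libraries), PROCR (-0.058 and -0.082 with limma) and F3 (-0.076 to 0.085 without single libraries) between genotypes in DMSO, and the F13A1 difference between responses (-0.41 and -0.079 with limma).

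Same-numbered libraries of control cells did not deviate together (r of -0.058 to 0.055 between DMSO and the treated groups). In sgEPCR cells the r of same-numbered libraries was -0.563, -0.561 and 0.413. The libraries of high mitochondrial share, sgEPCR DMSO replicate 1 and sgEPCR UM171 replicate 2, had r = 0.655. Deviations tied to those libraries mean that the check cannot tell whether sgEPCR libraries were paired. No label ties a replicate number to a clone. With the replicate block the sgEPCR response held 1 member and the difference between responses 0, and no count of the time course moved. No block fit was made for the differences between genotypes, since replicate numbers were nested within them.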

Other observations

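The mean length of PROCR transcripts, as RSEM weighs them in each library, was 1348 bases in all sgEPCR DMSO libraries and 1286 ± 27.6 bases (SD, n = 3) in sgEPCR UM171 libraries. The difference of -61.9 bases had p = 0.1 in a two-sided exact permutation test, the smallest that 3 libraries against 3 allow. In control cells the length was 1294 to 1348 bases in DMSO and 1322 to 1348 bases in UM171, so the ranges of the control DMSO and sgEPCR UM171 libraries (1259 to 1314 bases) overlapped.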
